A study of Homo sapiens with 12 samples.

Results

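The 10 genes described here belong to autophagy and mitophagy, and were followed through a cell line experiment on a long noncoding RNA and a kinase inhibitor. They were taken as a list of symbols, chosen with earlier results of these data known, and found in the count files by Entrez Gene identifier. They are ULK1 (8408), ATG14 (22863), WIPI1 (55062), GABARAPL1 (23710), GABARAP (11337), MAP1LC3B (81631), SQSTM1 (8878), PINK1 (65018), BNIP3 (664) and BNIP3L (665). All 10 were among the 21508 identifiers listed in at least 1 library, and all 10 were among the 15990 genes that passed the filter on low counts and were tested. The cells were EndoC-βH1, a human beta-cell line derived from foetal pancreas and immortalised with SV40 large T antigen and telomerase, so every library came from 1 line of dividing cells. With Lipofectamine RNAiMAX, they were transfected with AllStars Negative Control siRNA or with FlexiTube siRNAs against TUNAR, a long noncoding RNA. After 2 days they received either DMSO at a dilution of 1 in 1000 or 5 µM 1-AKP, a GSK3 inhibitor, for 24 hours. Each of the 4 combinations of siRNA and treatment held 3 libraries. Passage 74 supplied replicates 1 and 2, and passage 75 supplied replicate 3. Nothing in the labels gave the origin of a replicate beyond its passage, so p-values measure the spread between these libraries, which may be partly technical.

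Autophagy encloses cytoplasm in a double membrane, the autophagosome, and delivers it to lysosomes. The ULK kinase complex starts the process, a class III PI3-kinase complex marks the membrane with a phospholipid that WIPI proteins bind, and small ATG8 proteins of the GABARAP and LC3 families are attached to the growing membrane. Cargo receptors such as SQSTM1 (p62) tie cargo to the ATG8 proteins. Mitophagy removes mitochondria in the same way, either through PINK1, a kinase that accumulates on damaged mitochondria and recruits the ubiquitin ligase Parkin, or through BNIP3 and BNIP3L (NIX), outer-membrane receptors that bind ATG8 proteins directly. In beta cells autophagy is known for its part in the turnover of insulin granules and of mitochondria.

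The 4 promoters printed here set genes that fell with 1-AKP (ULK1, GABARAPL1 and ATG14) beside a gene for which no fall was called (BNIP3). Each window runs from 250 bases before to 50 bases after the RefSeq start site on GRCh38.p14, 300 bases in all, 5′ to 3′ on the strand of the gene. The last bases of the window were found in a reference transcript of the gene for GABARAPL1 and BNIP3, and not for ULK1 and ATG14. Capitals mark the E-box core CACGTG, the letters bound by factors of the MiT/TFE family that drive lysosome and autophagy genes. The windows are ULK1 at chr12:131894372-131894671 on the plus strand, GABARAPL1 at chr12:10212627-10212926 on the plus strand, ATG14 at chr14:55411781-55412080 on the minus strand and BNIP3 at chr10:131981874-131982173 on the minus strand.
ULK1: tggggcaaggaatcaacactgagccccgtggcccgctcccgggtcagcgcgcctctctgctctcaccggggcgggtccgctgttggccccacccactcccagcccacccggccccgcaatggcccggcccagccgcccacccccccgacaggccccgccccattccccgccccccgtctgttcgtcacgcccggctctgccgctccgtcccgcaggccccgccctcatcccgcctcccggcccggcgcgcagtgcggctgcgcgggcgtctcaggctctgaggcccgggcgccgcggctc
GABARAPL1: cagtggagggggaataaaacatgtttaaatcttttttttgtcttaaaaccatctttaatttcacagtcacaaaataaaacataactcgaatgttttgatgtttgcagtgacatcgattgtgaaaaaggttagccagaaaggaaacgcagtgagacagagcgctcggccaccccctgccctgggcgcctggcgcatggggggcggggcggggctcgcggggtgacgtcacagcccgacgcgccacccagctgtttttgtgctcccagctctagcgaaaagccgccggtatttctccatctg
ATG14: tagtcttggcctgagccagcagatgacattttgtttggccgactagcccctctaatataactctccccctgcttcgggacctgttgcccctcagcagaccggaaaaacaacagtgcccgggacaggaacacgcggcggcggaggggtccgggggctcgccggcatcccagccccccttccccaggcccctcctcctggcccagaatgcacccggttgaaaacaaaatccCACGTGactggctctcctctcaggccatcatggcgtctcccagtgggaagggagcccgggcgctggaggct
BNIP3: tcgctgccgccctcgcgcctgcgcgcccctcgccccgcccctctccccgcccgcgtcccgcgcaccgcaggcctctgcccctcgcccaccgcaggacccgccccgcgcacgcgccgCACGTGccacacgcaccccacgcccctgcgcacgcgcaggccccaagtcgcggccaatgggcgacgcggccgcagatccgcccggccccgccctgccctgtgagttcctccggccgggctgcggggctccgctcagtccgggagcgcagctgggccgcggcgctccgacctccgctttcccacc
RefSeq promoter windows were searched for 8 of the 10 genes, with 10 windows in all, 3 of them for SQSTM1. No window of PINK1 or BNIP3L was searched, so the matches below say nothing about the promoters of PINK1 and BNIP3L. CACGTG, which reads the same on both strands, occurred in 2 of the 8 genes, at base 230 of the ATG14 window and at base 117 of the BNIP3 window, counted from 1 at the 5′ end. The share of all 35116 RefSeq promoters of this length that hold it was 7.26%. The forkhead core GTAAACA, searched on both strands, was in none of the 10 windows and in 3.42% of all promoters. The antioxidant response core TGACNNNGC, searched on both strands, was in the MAP1LC3B window only, at base 205, against 13.3% of all promoters. The GC content was 78.3% for ULK1, 80.7% for BNIP3, 63.3% for ATG14 and 51.7% for GABARAPL1, beside a median of 58.7% over all promoters. A match of these letters describes the sequence and is not a measured binding site.

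The libraries held between 15653786 and 15986834 expected counts. In DMSO, TUNAR averaged 17.3 ± 2.76 CPM (counts scaled to a common library size) after the control siRNA and 6.37 ± 2.24 CPM after its own siRNAs. In 1-AKP the averages were 29.9 ± 1.69 and 10.3 ± 3.32 CPM (SD, n = 3 each). AXIN2, a standard target of the Wnt pathway that GSK3 restrains, lay between 9.21 and 10.5 CPM in all 4 group means and did not rise with 1-AKP (log2 fold change -0.14, edgeR adjusted p = 0.336). The 8 beta-cell markers were all measured, with a summed level between 11407 and 14676 CPM in the 6 DMSO libraries and between 10852 and 14952 CPM in the 6 libraries with 1-AKP. Of these markers, IAPP, PDX1 and NKX6-1 fell and G6PC2 rose with 1-AKP. Of the markers of other islet cells 3 of 7 passed the filter, of duct and acinar cells 2 of 6, and of fibroblasts, endothelium and blood cells 5 of 7. The last group summed to between 29.3 and 61.5 CPM in DMSO and between 34.8 and 62.9 CPM in 1-AKP, and none of its genes was called with 1-AKP in the fit without the block. With the block CD68 was called (0.26, edgeR adjusted p = 0.000565). In that fit CPA1 of the duct and acinar markers (-0.2, edgeR adjusted p = 0.000445) and IRX2 of the other islet markers (-0.16, 0.00472) were called too.

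Per unit of length the 10 genes covered a wide range of abundance. In negative siRNA with DMSO, GABARAP was the most abundant at 223 ± 6.52 FPKM (SD, n = 3), above 98.7% of tested genes, and GABARAPL1, its close paralogue, was the least at 1.14 ± 0.526 FPKM, above 17.2% of them. SQSTM1 followed GABARAP at 55.0 ± 4.26 FPKM and BNIP3 came next at 43.8 ± 1.39 FPKM. PINK1 (31.9 ± 3.77 FPKM), MAP1LC3B (30.3 ± 2.84 FPKM) and BNIP3L (28.5 ± 2.02 FPKM) overlapped with their neighbours in this order, and every other neighbouring pair was separate in its 3 libraries. ULK1 had 21.9 ± 1.03 FPKM, ATG14 5.64 ± 0.435 FPKM and WIPI1 2.36 ± 0.641 FPKM. The order of the first 3 and of the last 4 genes was the same in all 4 groups. In the middle of the order, MAP1LC3B stood above PINK1 and BNIP3L in both groups with 1-AKP, with no overlap between MAP1LC3B and PINK1.

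**Figure D1:**
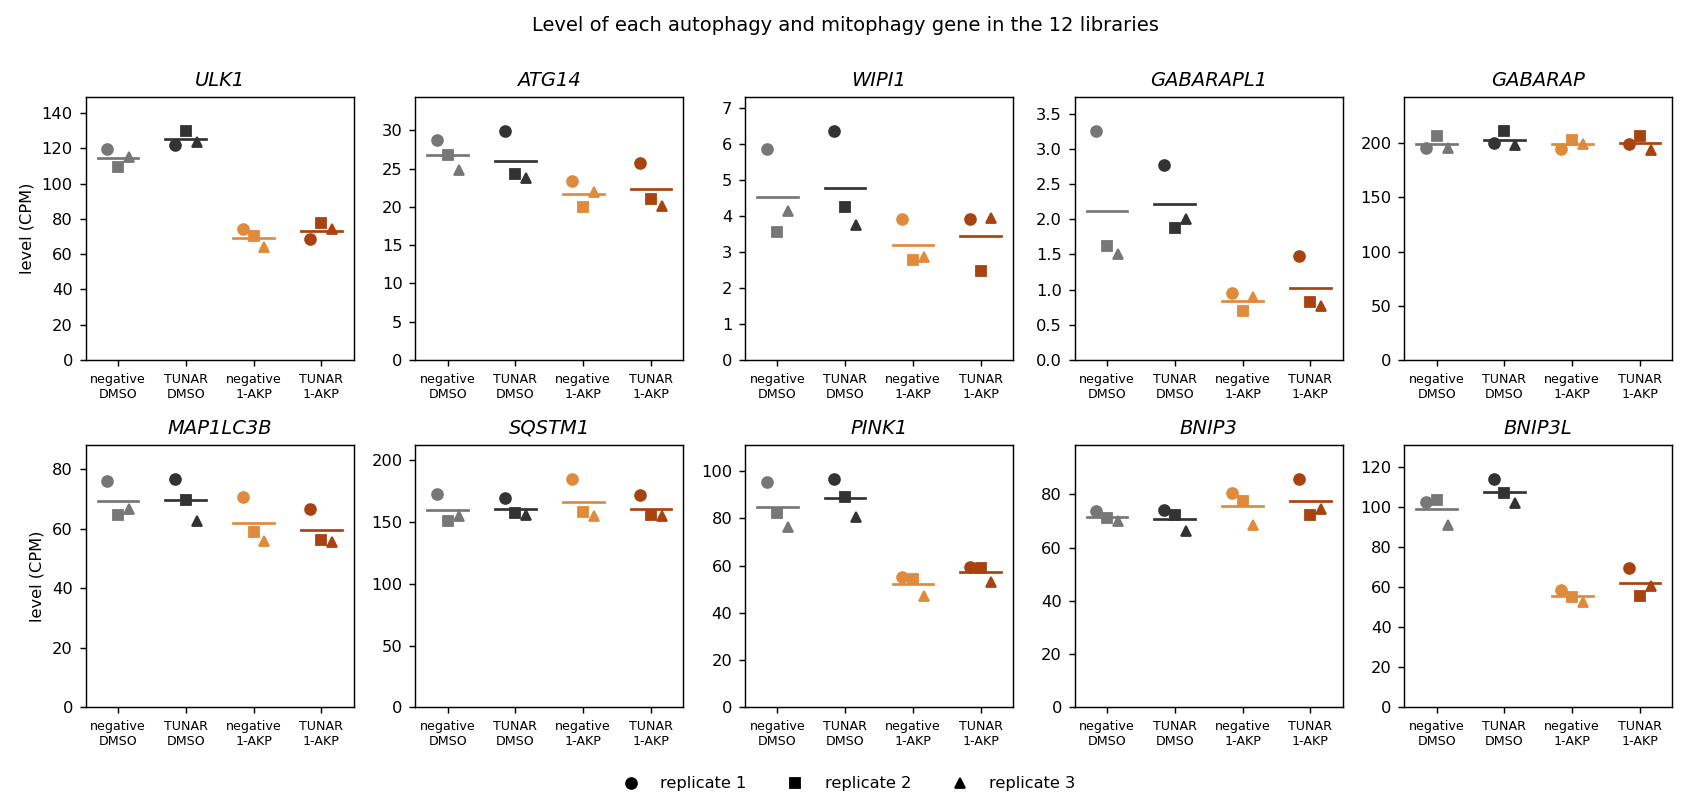
Level of each of the 10 genes in CPM (vertical axes from 0, a separate scale for each gene) in the 12 libraries, by group, with circles, squares and triangles for replicates 1, 2 and 3 and a bar at the group mean. For ULK1, GABARAPL1, PINK1 and BNIP3L all 6 libraries with 1-AKP lie below all 6 with DMSO.

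The first comparison asks which of these transcripts differ after 1-AKP, given in the study as a GSK3 inhibitor. With 1-AKP, 5 of the 10 genes fell and none rose, averaged over the negative and TUNAR siRNAs: ULK1, BNIP3L, PINK1, GABARAPL1 and ATG14 (edgeR's quasi-likelihood test, Benjamini-Hochberg adjustment over 15990 genes, threshold 0.05). Across all genes tested, 9.25% fell and 9.97% rose in the same comparison. The median log2 fold change of the 10 genes was -0.375, beside -0.003 over all genes tested. Because the 10 genes were chosen with earlier results of these data known, these figures describe the list and do not test it. WIPI1, MAP1LC3B, BNIP3, SQSTM1 and GABARAP did not pass the test. In bulk RNA, fewer cells that express a gene and less of its RNA per cell cannot be told apart. The mean shares its libraries with the comparisons within each siRNA, and all comparisons share libraries with those of the siRNAs.

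ULK1, the kinase that starts autophagosome formation, gave 119, 109.5 and 115 CPM in negative siRNA with DMSO and 122, 129.6 and 124 CPM in TUNAR siRNAs with DMSO. With 1-AKP it gave 74.0, 70.0 and 64.2 CPM with negative siRNA and 68.4, 77.6 and 74.1 CPM with TUNAR siRNAs. The 6 libraries with 1-AKP were all below the 6 with DMSO, a separation downward that 4 of the 10 genes and 4.97% of all tested genes had. The log2 fold change was -0.75 ± 0.045 (SE, adjusted p = 1e-06 in edgeR's quasi-likelihood test), which leaves 59.6% of the DMSO level. It was -0.72 with negative siRNA (adjusted p = 7.58e-05) and -0.77 with TUNAR siRNAs (adjusted p = 4.69e-05). Only 1.09% of tested genes had a lower log2 fold change.

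ATG14, the subunit that directs the class III PI3-kinase to sites of autophagosome formation, gave 28.7, 26.8 and 24.8 CPM in negative siRNA with DMSO and 29.9, 24.2 and 23.8 CPM in TUNAR siRNAs with DMSO. With 1-AKP the values were 23.3, 19.9 and 21.9 CPM with negative siRNA and 25.7, 21.0 and 20.1 CPM with TUNAR siRNAs. The ranges of the 6 DMSO and the 6 1-AKP libraries overlapped, while the library with 1-AKP was lower than the DMSO library of the same siRNA and number in 6 of 6 cases. Not all same-numbered libraries met the rule for pairing across treatments, so this count is a description. Its share over all genes was not taken. The log2 fold change was -0.26 ± 0.081 (SE, edgeR adjusted p = 0.0392), or 83.4% of the DMSO level. This call was lost when any 1 of 7 libraries was left out (replicate 1 or 2 of negative siRNA with DMSO, replicate 1 of TUNAR siRNAs with DMSO, replicate 2 or 3 of either group with 1-AKP), with edgeR adjusted p between 0.0729 and 0.102, and at passage 74 alone (0.161). WIPI1, which binds the phospholipid made by that kinase, averaged 71.3% of its DMSO level with a log2 fold change of -0.49 ± 0.185 (SE, edgeR adjusted p = 0.0858). Its libraries held between 39 and 101 counts, ran from 3.55 to 6.35 CPM in DMSO and from 2.47 to 3.93 CPM with 1-AKP, and overlapped. The library with 1-AKP was the lower one in 5 of 6 pairs of the same siRNA and number. The share over all genes was not taken here either.

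Of the 3 ATG8 genes among the 10, GABARAPL1 fell, and GABARAP and MAP1LC3B did not pass the test. GABARAPL1 gave 3.25, 1.62 and 1.502 CPM in negative siRNA with DMSO and 2.77, 1.88 and 2.01 CPM in TUNAR siRNAs with DMSO. With 1-AKP it gave 0.948, 0.694 and 0.890 CPM with negative siRNA and 1.48, 0.823 and 0.761 CPM with TUNAR siRNAs. Every library with 1-AKP was below every library with DMSO, the nearest pair being 1.48 and 1.502 CPM. The log2 fold change of -1.22 ± 0.25 (SE, edgeR adjusted p = 0.00445) left 43.0% of the DMSO level, and 0.188% of tested genes had a lower one. These values rest on between 10.8 and 51.9 expected counts per library. At passage 74 alone, with 2 libraries per group, the log2 fold change was -1.28 and the call was lost (edgeR adjusted p = 0.0599).

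GABARAP, which acts late in autophagosome closure and in the traffic of receptors, gave 195, 206.5 and 196 CPM in negative siRNA with DMSO and 195, 203 and 199 CPM in negative siRNA with 1-AKP. With TUNAR siRNAs it gave 200.3, 211 and 198 CPM in DMSO and 199, 207 and 194 CPM in 1-AKP. The 2 treatments covered the same range, and the log2 fold change was -0.01 with a 95% interval from -0.08 to 0.06 (edgeR adjusted p = 0.851). MAP1LC3B, the LC3 protein used as the usual marker of autophagosomes, ranged from 62.6 to 76.7 CPM (median 68.0) in DMSO and from 55.4 to 70.7 CPM (median 57.5) with 1-AKP. Its libraries overlapped between treatments. As a description, the library with 1-AKP was the lower one in 6 of 6 pairs of the same siRNA and number. The share of all genes with such a count was not taken. MAP1LC3B had a log2 fold change of -0.19 ± 0.077 (SE), which did not pass the test (edgeR adjusted p = 0.1). It passed in 8 of 24 alternatives. Among them were passage as a covariate (edgeR adjusted p = 0.0408) and the replicate block (3.77e-06), for which the pairing rule was not met here. It also passed without replicate 1 of negative siRNA with 1-AKP (0.0298), of TUNAR siRNAs with 1-AKP (0.0389) or of all groups (0.000419).

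SQSTM1, the receptor for ubiquitinated cargo, ranged from 151 to 173 CPM in DMSO and from 154 to 185 CPM with 1-AKP. The medians were 156 and 157 CPM, and the log2 fold change was 0.03 with a 95% interval from -0.09 to 0.14 (edgeR adjusted p = 0.8). PINK1, the kinase of Parkin-dependent mitophagy, gave 95.4, 82.4 and 76.5 CPM in negative siRNA with DMSO and 96.7, 88.9 and 80.8 CPM in TUNAR siRNAs with DMSO. With 1-AKP it gave 55.1, 54.5 and 47.1 CPM with negative siRNA and 59.4, 59.1 and 53.2 CPM with TUNAR siRNAs. All 6 libraries with 1-AKP were below all 6 with DMSO. The log2 fold change was -0.67 ± 0.066 (SE, edgeR adjusted p = 3.73e-05), or 63.0% of the DMSO level, and 1.54% of tested genes had a lower one. PINK1-AS, an antisense gene that overlaps PINK1, fell by 0.48 on the log2 scale (edgeR adjusted p = 7.16e-05), from 59.1 ± 3.42 to 42.3 ± 3.70 CPM (SD, n = 6 each). The libraries are not stated to keep the strand, so reads of PINK1 and PINK1-AS cannot be told apart where the genes overlap.

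Of the 2 mitophagy receptors of the outer membrane, BNIP3L fell and BNIP3 did not pass the test. BNIP3L gave 103, 104 and 91.5 CPM in negative siRNA with DMSO and 114, 107 and 102 CPM in TUNAR siRNAs with DMSO. With 1-AKP it gave 58.6, 55.4 and 52.9 CPM with negative siRNA and 69.9, 55.6 and 60.5 CPM with TUNAR siRNAs. No library with 1-AKP reached the lowest one with DMSO. The log2 fold change was -0.82 ± 0.059 (SE, edgeR adjusted p = 3.32e-06), or 56.7% of the DMSO level, and 0.863% of tested genes had a lower one. BNIP3 gave 73.8, 71.0 and 69.9 CPM in negative siRNA with DMSO and 74.2, 72.2 and 66.3 CPM in TUNAR siRNAs with DMSO. With 1-AKP its values were 80.5, 77.6 and 68.3 CPM with negative siRNA and 85.8, 72.1 and 74.4 CPM with TUNAR siRNAs. They overlapped with those in DMSO, and the log2 fold change of 0.10 ± 0.055 (SE) did not pass the test (edgeR adjusted p = 0.229).

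**Figure D2:**
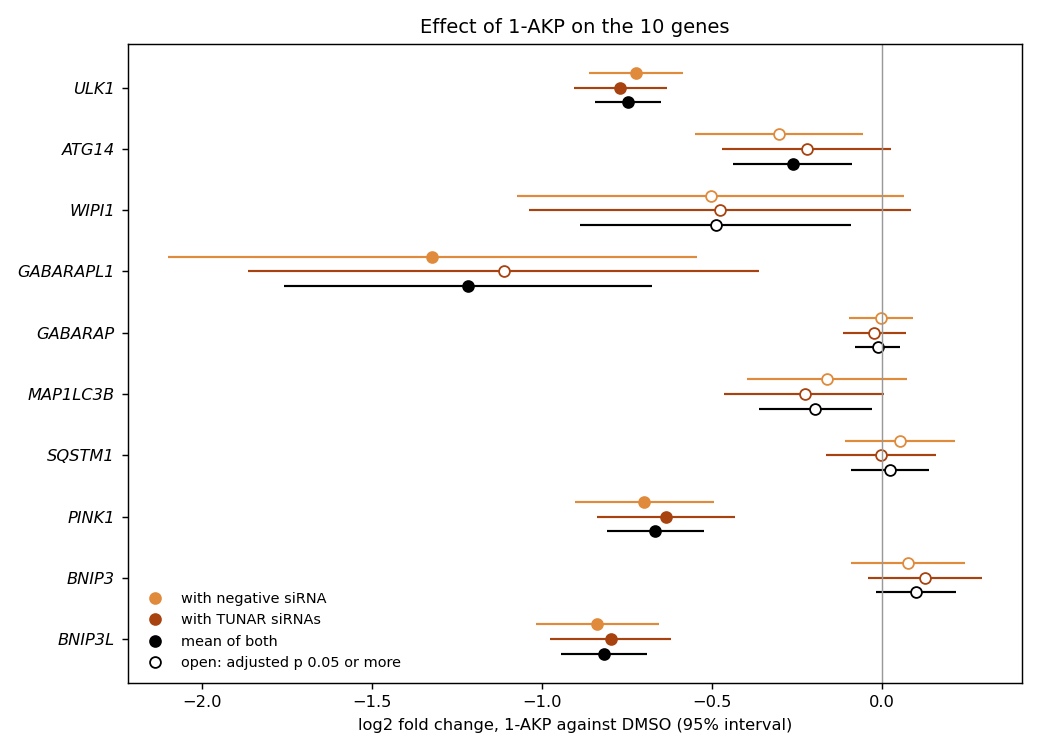
Log2 fold change of each of the 10 genes with 1-AKP against DMSO, with its 95% interval from edgeR, for negative siRNA (light), TUNAR siRNAs (dark) and their mean (black). Filled points passed the adjusted threshold of 0.05. ULK1, PINK1 and BNIP3L are filled in all 3 comparisons, GABARAPL1 with negative siRNA and in the mean, and ATG14 in the mean alone.

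The 2 siRNA backgrounds gave similar sizes. With negative siRNA 4 of the 10 genes fell, against 3.76% of all genes tested. They were ULK1, PINK1 (log2 fold change -0.70), BNIP3L (-0.84) and GABARAPL1 (-1.32, edgeR adjusted p = 0.0439). With TUNAR siRNAs 3 of the 10 fell, against 3.79% of all genes. They were ULK1, PINK1 (-0.63) and BNIP3L (-0.80), while GABARAPL1 had -1.11 ± 0.348 (SE, edgeR adjusted p = 0.0733). Of the alternatives run for GABARAPL1 with negative siRNA, 13 of 24 lost the call. They include leaving out any 1 library other than replicate 3 of negative siRNA with DMSO and replicate 1 of either TUNAR siRNA group, and leaving out replicate 1 of all groups. Without replicate 1 of negative siRNA with DMSO the log2 fold change was -0.88 (edgeR adjusted p = 0.179), and without replicate 1 of all groups the log2 fold change was -0.97 (edgeR adjusted p = 0.0606). The difference between the 2 backgrounds, tested as an interaction, was called for none of the 10 genes (edgeR adjusted p = 1 for each) and for none of all tested genes, of which 170 had an unadjusted p under 0.05. Its 95% interval was from -0.24 to 0.15 for ULK1, from -0.22 to 0.35 for PINK1, from -0.21 to 0.29 for BNIP3L and from -0.89 to 1.30 for GABARAPL1.

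Ratios within a library set family members side by side. They were chosen after the values of their genes were seen, so they are given as a description with no test. BNIP3L relative to BNIP3, as a ratio of FPKM, had a median of 0.690 in DMSO (from 0.613 to 0.721) and of 0.362 with 1-AKP (from 0.334 to 0.382). The ranges were apart, and the mean log2 ratio differed by -0.92 with 1-AKP. GABARAPL1 relative to GABARAP had a median of 0.00455 in DMSO (from 0.00370 to 0.00796) and of 0.00202 with 1-AKP (from 0.00161 to 0.00355). This ratio was also separate between treatments, with a log2 difference of -1.21. MAP1LC3B relative to GABARAP had medians of 0.131 and 0.113 and overlapped (log2 difference -0.19). A ratio does not show which of its genes changed.

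**Figure D3:**
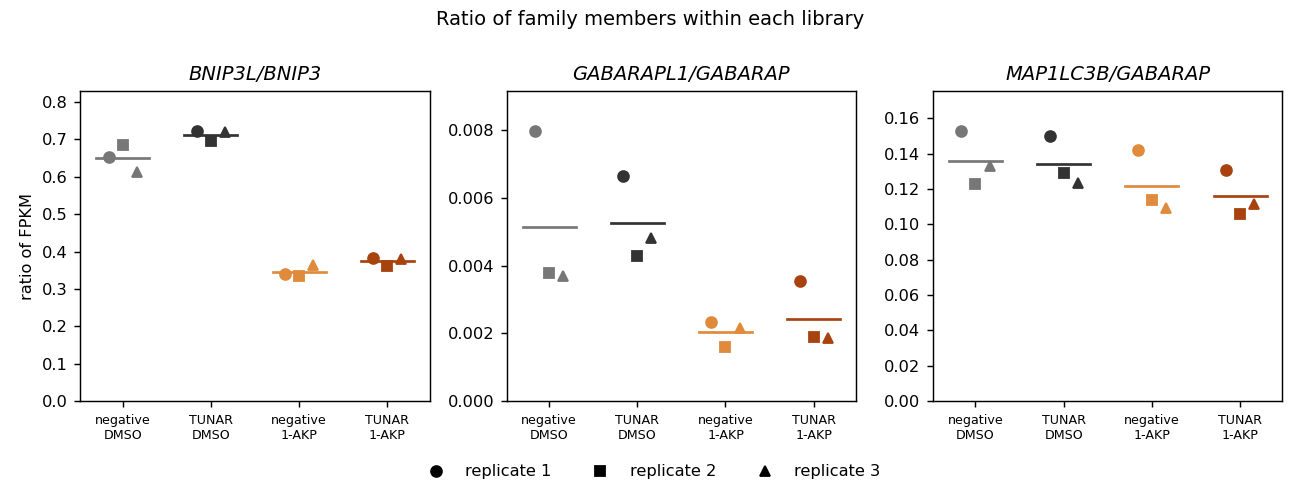
Ratio of FPKM between 2 family members within each library (vertical axes from 0, a separate scale for each pair), by group, with a marker for each replicate and a bar at the group mean. The BNIP3L/BNIP3 and GABARAPL1/GABARAP ratios of the libraries with 1-AKP lie below all those with DMSO, while the MAP1LC3B/GABARAP ratios overlap.

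TUNAR siRNAs gave mean log2 fold changes between -0.02 and 0.17 for the 10 genes. Without the replicate numbers in the fit, none of the 10 passed the test in DMSO, in 1-AKP or in the mean of both (edgeR's quasi-likelihood test). In the mean, 28 of all tested genes were called, 0.05% of genes rose, and 1392 genes had an unadjusted p under 0.05, among the 10 ULK1 (0.0389) and BNIP3L (0.0354). DESeq2 also called none of the 10. The libraries of the same number deviated together in the siRNA comparisons, so the fit with the replicate number as a block is given beside this one. In the block fit BNIP3L rose, with a log2 fold change of 0.14 ± 0.034 (SE, edgeR adjusted p = 0.00734), and PINK1 rose, with 0.10 ± 0.032 (edgeR adjusted p = 0.0382). That is 2 of 10 genes, against 4.4% of all genes that rose in the block fit. In the same fit and comparison CD68, a macrophage marker, fell (-0.46), and KRT19, a duct marker, and the proliferation gene MKI67 rose (0.18 and 0.14). The beta-cell genes IAPP (-0.35), NKX6-1 (-0.20) and PDX1 (-0.14) fell as well, while SLC30A8 (0.22) and INS (0.07) rose. Of the 10 G2/M genes 3 rose and none fell. The part of these markers in the values of BNIP3L and PINK1 was not tested. ULK1 had 0.10 ± 0.035 (edgeR adjusted p = 0.0714) in the block fit, against 0.527 without it, where BNIP3L had 0.518 and PINK1 0.771.

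Pair by pair, the TUNAR siRNA library was above its negative siRNA counterpart of equal treatment and number in 6 of 6 cases for BNIP3L (log2 differences from 0.01 to 0.25) and in 6 of 6 for PINK1 (from 0.02 to 0.18). For ULK1 (from -0.11 to 0.24) and GABARAP (from -0.04 to 0.04) it was above in 5 of 6 cases. These counts describe the same libraries as the block fit, and their share over all genes was not taken. The calls of the block fit changed when a number was left out, which also leaves fewer libraries per group. Without number 1 the block fit called PINK1 and ULK1 (0.18, edgeR adjusted p = 0.000278) and not BNIP3L, without number 2 BNIP3L alone, and without number 3 none of the 10. The block takes 1 shift per number over both treatments, and across treatments number 2 did not reach the correlation that the pairing rule asks for (0.0871 and 0.0634, against a limit of 0.1). Within DMSO and within 1-AKP none of the 10 was called in either fit. The remaining 7 genes had mean log2 fold changes between -0.02 and 0.17 without the block and did not pass the test in either fit.

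**Figure D4:**
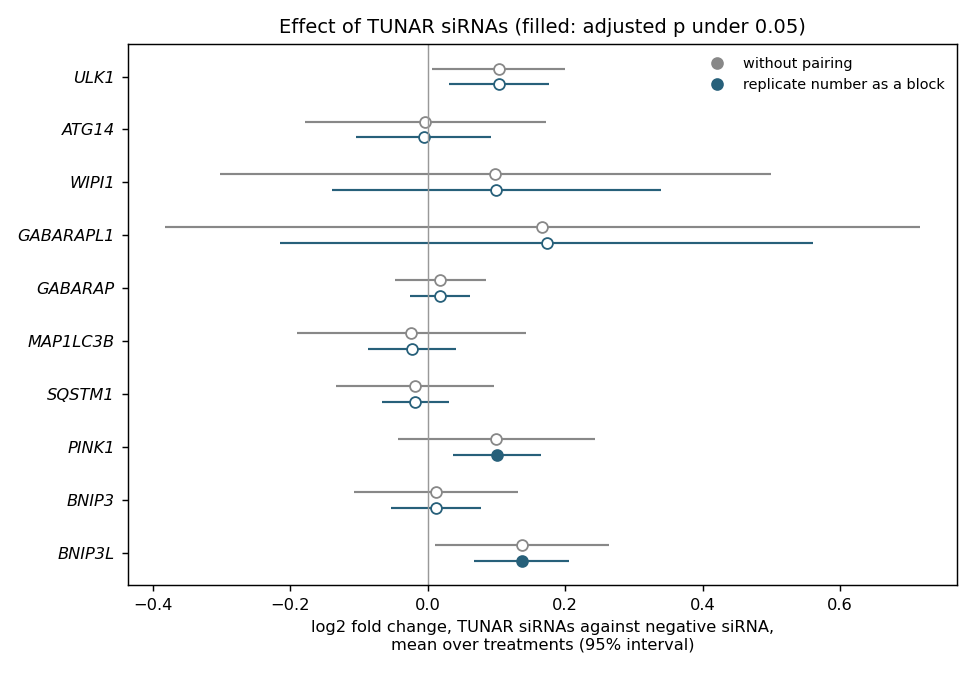
Log2 fold change of each of the 10 genes with TUNAR siRNAs against negative siRNA, averaged over both treatments, with its 95% interval from edgeR, without the replicate number (grey) and with it as a block (blue). Filled points passed the adjusted threshold of 0.05, which were PINK1 and BNIP3L in the block fit.

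The other genes of the pathway were taken as 8 lists by role, 64 genes in all, each of which passed the filter. With 1-AKP 19 of the 64 fell and 6 rose (edgeR, adjusted over all genes), which is 29.7% and 9.38%, beside 9.25% and 9.97% of all genes tested. The share that rose was thus near that of all genes. Their median log2 fold change was -0.037. These lists were likewise chosen with earlier results of these data known, so the shares are a description. The ULK complex had the lowest median of the lists, -0.378, and 3 of its 4 other members fell. ATG13, the scaffold of the complex, went from 85.6 ± 3.49 to 53.2 ± 1.85 CPM (SD, n = 6 each), a log2 fold change of -0.69 (edgeR adjusted p = 5.67e-07). RB1CC1 (FIP200), the large scaffold, fell by 0.46 and ULK2, the paralogue of ULK1, fell by 0.30 on the log2 scale. ATG101, a partner of ATG13, rose by 0.19 (edgeR adjusted p = 0.0274). It is named after its value was seen, as the only one of the list that rose. Its call was lost in 7 of 24 alternatives, among them leaving out replicate 1 or 2 of negative siRNA with DMSO, replicate 2 of any other group, or replicate 3 of TUNAR siRNAs with 1-AKP.

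Of the class III PI3-kinase list 2 of 7 fell, the catalytic subunit PIK3C3 (-0.16) and its regulatory partner PIK3R4 (-0.14), and none rose. PIK3R4 lost its call in 6 of 24 alternatives, among them leaving out replicate 2 of negative siRNA with DMSO, replicate 1 or 2 of negative siRNA with 1-AKP, or replicate 3 of either TUNAR siRNA group. Of the genes that supply membrane to the growing autophagosome 4 of 9 fell. WDR45 (-0.65) and WIPI2 (-0.56) are WIPI family members like WIPI1, and ATG2B (-0.43) is a lipid transfer protein. The remaining ones of this list that passed, named after their values were seen, were ATG9A (-0.30), the lipid scramblase, and VMP1, which rose by 0.18 (edgeR adjusted p = 0.0421). VMP1 lost its call without any 1 library other than replicate 1 of TUNAR siRNAs with DMSO and replicate 3 of TUNAR siRNAs with 1-AKP. None of the 11 genes that attach ATG8 proteins to the membrane fell, and 1 rose, the E2-like enzyme ATG3 (0.18), with a median of 0.073. Among the 3 other ATG8 genes MAP1LC3A fell by 0.35 on the log2 scale.

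Cargo receptors fell in 5 of 11 cases and none rose. NBR1, which resembles SQSTM1 in its domains, went from 145 ± 15.98 to 84.8 ± 11.5 CPM (SD, n = 6 each), a log2 fold change of -0.77 (edgeR adjusted p = 0.000373), while SQSTM1 itself did not pass the test. CCPG1, a receptor for the endoplasmic reticulum, had -0.44 and TAX1BP1, a receptor for ubiquitinated cargo, had -0.43. The others, named after their values were seen, were RETREG1 (-0.33) and WDFY3 (-0.12). Of 9 other mitophagy genes 1 fell and 1 rose, BCL2L13 with a log2 fold change of -0.12 (edgeR adjusted p = 0.0495) and PHB2 with 0.18. Both counts were near the 9.25% of all genes tested that fell and the 9.97% that rose. The call of BCL2L13 was lost without any 1 library other than replicate 2 of TUNAR siRNAs with 1-AKP. Of 10 genes of autophagosome fusion 3 fell, EPG5 (-0.28), VPS39 (-0.28) and PLEKHM1 (-0.30). The 2 that rose, named after their values were seen, were VPS41 (0.27) and RAB7A (0.14).

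**Figure D5:**
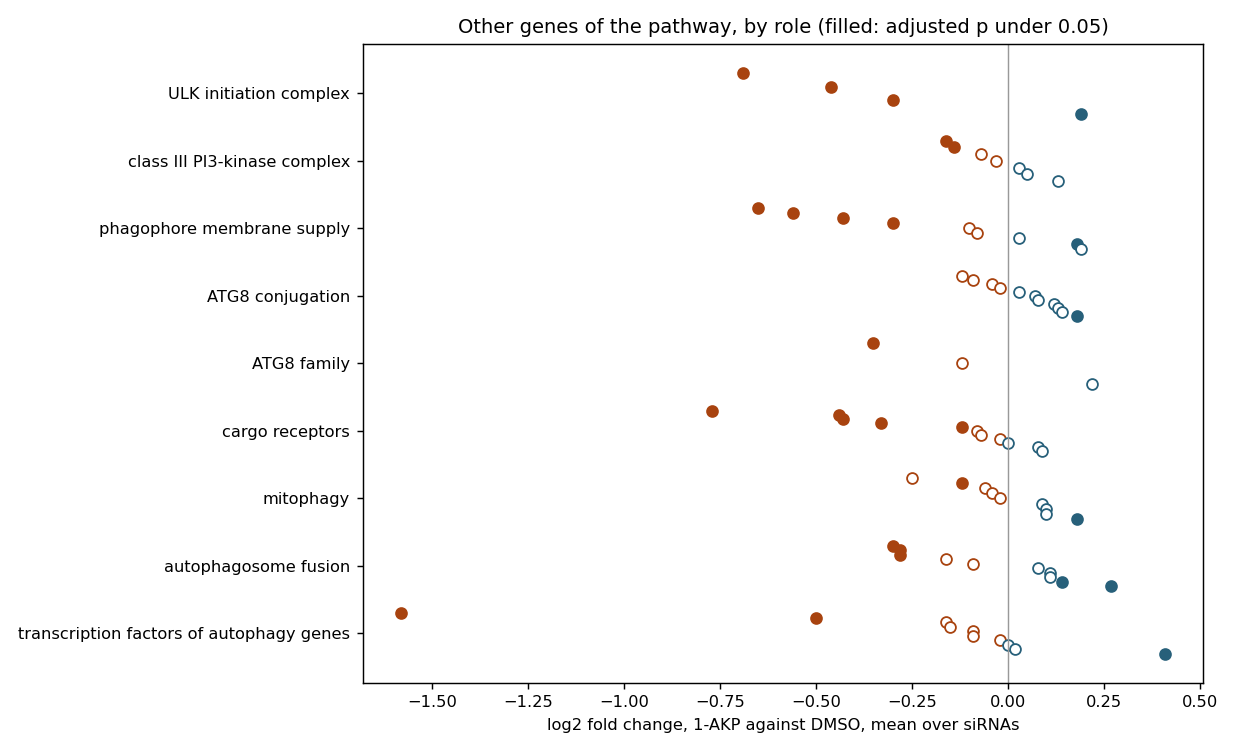
Log2 fold change with 1-AKP against DMSO, averaged over siRNAs, of each other gene of the 8 pathway lists and of the transcription factor list, 1 point per gene. Filled points passed the adjusted threshold of 0.05, and points are spread vertically within a list for legibility. The filled points to the left are most frequent in the ULK complex, membrane supply and cargo receptor lists, and the list of ATG8 conjugation has none.

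Transcription factors of autophagy genes were given as a further list of 10, of which 2 fell and 1 rose with 1-AKP. Across all genes tested 9.25% fell and 9.97% rose, and counts from 10 genes are too small to set this list apart. FOXO4, a forkhead factor, went from 5.76 ± 0.374 to 1.95 ± 0.395 CPM (SD, n = 6 each), a log2 fold change of -1.58 (edgeR adjusted p = 2.18e-06). FOXO3, the forkhead factor best known for driving autophagy genes in muscle, went from 73.0 ± 2.28 to 51.5 ± 2.45 CPM, a log2 fold change of -0.50 (edgeR adjusted p = 7.84e-06). NFE2L2 (NRF2), the factor of the antioxidant response, rose by 0.41 (edgeR adjusted p = 0.00089). BNIP3 and BNIP3L are also known as targets of hypoxia-inducible factor. Of 10 other tested targets of that factor 2 rose and 2 fell with 1-AKP, ENO2 (0.28) and KDM3A (-0.27) with the lowest p, NDRG1 (-0.32), and P4HA1 (0.22), the last named after its value was seen. Beside the same shares of all genes, these counts are likewise too small to set this list apart.

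After TUNAR siRNAs none of the 64 pathway genes was called without the block, and 4 rose and 4 fell with it. Each is 6.25% of the 64, near the 4.4% of all genes that rose and the 4.18% that fell in the block fit, so the counts do not set these genes apart. Those that rose were RUBCN (0.14), ATG2B (0.14), WDFY3 (0.12) and TECPR1 (0.14), and those that fell were NRBF2 (-0.15), MAP1LC3A (-0.19), BCL2L13 (-0.11) and VAMP8 (-0.21), all as mean log2 fold changes in the block fit. Of the hypoxia targets VEGFA (-0.09) and SLC2A1 (-0.10) fell in the block fit.

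Within groups, replicate 1 stood above replicates 2 and 3 for most of the 10 genes. The mean log2 difference was 0.63 for GABARAPL1, 0.51 for WIPI1, 0.25 for MAP1LC3B and 0.24 for ATG14, against 0.01 for ULK1 and -0.03 for GABARAP. Replicate 1 was the highest in 4 of 4 groups for 6 of the genes (GABARAPL1, MAP1LC3B, SQSTM1, ATG14, PINK1 and BNIP3). The share of all genes with replicate 1 highest was not taken. A list of 10 genes of the G2/M phase moved with replicate 1, with a median difference of 0.58, and its part in the levels was not tested. Without replicate 1 of any group, 6 of the 10 genes fell with 1-AKP, the 5 above and MAP1LC3B (-0.22, edgeR adjusted p = 0.000419), and the share of all genes that fell in that setting was 14%, against 9.25% with all libraries.

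Genes with the most similar pattern over the 12 libraries were found by Pearson's r of log2 CPM among tested genes, leaving out open reading frame names and symbols that begin with LOC, LINC, MIR, FAM, KIAA or TMEM, and are given as a description, since all points share their libraries and treatments. For ULK1 the first was CHD6 (0.988), for PINK1 they were KLHL24 (0.985) and ERBB2 (0.984), and for BNIP3L OSBPL2 (0.99) and FYN (0.987). For GABARAPL1 they were CDC42BPA (0.984) and TDRKH (0.976), and for ATG14 HPCAL1 (0.956) and PEX7 (0.955). MAP1LC3B had NEURL1B (0.98) and ELF1 (0.975), SQSTM1 had SMTN (0.967), and WIPI1 had L1CAM (0.94) and JHY (0.928). BNIP3 had SLC43A2 (0.943) and NPTN (0.935), and GABARAP had the lowest values, with SLC1A2 (0.905) and MBOAT4 (0.896). Near-identical copies had few counts. MAP1LC3B2, a retrocopy of MAP1LC3B, held between 3.13 and 36.1 expected counts per library, beside between 873 and 1220 for MAP1LC3B, and GABARAPL3, which resembles GABARAPL1, held between 0 and 2.19.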

How the data were processed

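Polyadenylated RNA was sequenced after random hexamer priming, per the labels' protocols, which name no strand marking. The deposited files give an expected count per gene and library, per the file headers, which is an estimate of reads without scaling. The authors also deposited FPKM values, fragments scaled by gene length and library total, and a gene length column in bases, which is another kind of value than these units. The submitters' processing notes name BWA, Bowtie and RSEM and the builds GRCh37 and hg19, with no versions or roles, so no gene coordinates are printed apart from RefSeq promoter windows on GRCh38.p14. The files list between 18787 and 18994 genes per library, and a gene not listed was taken as 0. Of 21508 identifiers 21386 were matched to symbols.

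The 10 genes and the gene lists were chosen with earlier results of these data known. Expected counts were rounded and genes kept by edgeR's filterByExpr (minimum count 10, minimum total 15), which left 15990 genes and 99.9% of counts. The model had a mean for each of the 4 groups over 12 libraries (glmQLFit, robust, in edgeR 4.0.16 and R 4.3.3). TMM factors ran from 0.990 to 1.014, 8 residual degrees of freedom were left, and the common biological variation was 8.74%. Contrasts were tested by quasi-likelihood, and p-values were adjusted by Benjamini-Hochberg over the 15990 genes and called under 0.05. CPM use the TMM library sizes. FPKM are as deposited. On counts simulated for the 1-AKP comparison over 15990 genes, 88% of log2 changes of 0.5 and 98% of log2 changes of 1 were recovered, and 7.92% of the calls were false. Changes were given to 100 genes of each size, drawn above a minimum mean CPM, with no shift between replicate numbers. GABARAPL1 and WIPI1 lay below that minimum, so these rates do not cover them or shifts between numbers. Pairs of libraries within groups differed by more than counting error, with chi-square per degree of freedom from 2.31 to 11.3, so none was a copy of another in its group.

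Pairing by replicate number was checked with the correlation across genes of same-numbered libraries after subtracting group means. Every pair of the siRNA comparisons exceeded 0.1 (0.376, 0.178 and 0.217 in DMSO, 0.416, 0.162 and 0.286 in 1-AKP). In the 1-AKP comparisons number 2 did not (0.0871 and 0.0634). The labels share the number and do not say what it marks. Named genes outside the 10 were planned as at most 3 called genes per list, those of lowest p, the 2 genes most like each of the 10 (1 each for ULK1 and SQSTM1, the other not being reported here), near-identical copies and antisense genes, and TUNAR and AXIN2. Further called genes of the lists, and the markers of cell types and of the cell cycle, were named after their values were seen. Alternatives were the replicate block, passage as a covariate, library size scaling, no filter, DESeq2 1.42.0, limma 3.58.1 on log2(FPKM + 0.5) and log2(FPKM + 0.1), only the groups compared, and leaving out each library or number. Those without replicate 1 of any group, at passage 74 alone, and the family ratios were added after the data were seen. Passage 75 had 1 library per group and gave no test of its own.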

Additional observations from a re-analysis of the deposited data

How the results depend on the processing

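ULK1, PINK1 and BNIP3L passed the test with 1-AKP in all 24 alternatives for the mean, with adjusted p at most 0.00189, 0.00246 and 0.00226. GABARAPL1 lost the call in 1 of 24 and ATG14 in 8 of 24. The count of the 10 genes called in the mean was 5, and it was 8 with the replicate block (7 fallen, with MAP1LC3B at adjusted p = 3.77e-06 and WIPI1 at 0.00104 added, and BNIP3 risen at 0.0113, all by edgeR), 3 at passage 74 alone, where 850 of all genes were called, and between 4 and 8 when libraries or numbers were left out. Because the replicate numbers did not meet the rule for pairing in the 1-AKP comparisons, the block is an alternative there. It gave 7 genes with negative siRNA instead of 4 and 8 with TUNAR siRNAs instead of 3. Over all 15990 genes it raised the calls from 1168 to 4285 with negative siRNA and from 1201 to 4335 with TUNAR siRNAs. Leaving out libraries or numbers gave between 3 and 6 genes with TUNAR siRNAs. Over all genes the block raised the calls in the mean from 3074 to 6343. With TUNAR siRNAs against negative, the count was 0, with 2 in the block fit and between 0 and 2 when libraries or numbers were left out, and it was between 0 and 1 within DMSO and between 0 and 1 within 1-AKP. The block raised the calls over all genes from 28 to 1373. The interaction was called for none of the 10 in any alternative run. For the 64 pathway genes the number risen with 1-AKP was 6, with 15 in the block fit, 0 at passage 74 alone and between 4 and 12 with libraries or numbers left out. The 15 are 23.4% of the 64, a share near that of all genes, of which 3297 of 15990 rose in the block fit. The number of the 64 that fell stayed between 13 and 26. Among these genes BCL2L13 lost its call in 16 of 24 alternatives, VMP1 in 14, ATG101 in 7, PIK3R4 in 6 and RETREG1 in 2 (without replicate 2 of TUNAR siRNAs with DMSO, and at passage 74 alone), and no other named pathway gene in more than 1. With TUNAR siRNAs 4 pathway genes fell and 4 rose with the block, 1 rose in DESeq2, and leaving out libraries or numbers gave between 0 and 2 fallen and between 0 and 4 risen. Values near 0 changed sign when libraries were left out. With 1-AKP, GABARAP ran from -0.027 to 0.002 and SQSTM1 from -0.016 to 0.058 on the log2 scale. With TUNAR siRNAs, ATG14 ran from -0.062 to 0.037 (0.039 at passage 74 alone), BNIP3 from -0.025 to 0.04, GABARAPL1 from -0.011 to 0.391, MAP1LC3B from -0.066 to 0.033, SQSTM1 from -0.041 to 0.026 and WIPI1 from -0.028 to 0.218. The causes of these changes were not tested. Library size as the only scaling shifted the median of all genes by -0.019. GABARAPL1 had between 10.8 and 51.9 expected counts per library and WIPI1 between 39 and 101, which limits both.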
